A study of Mus musculus with 26 samples.

Results

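Sperm of 3 mice that had received cultured spermatogonial stem cells (SSCT F0) was compared with sperm of 5 sons of transplanted males (SSCT F1), 8 of the 26 RRBS libraries of the series. The comparison asks whether what the sperm of transplanted males shows is kept or reset in sperm of the next generation. The SSCT F0 mice were W/W-v recipients on the WBB6F1/J background, which lack spermatogenesis of their own, and their sperm came from neonatal DBA/2J spermatogonial stem cells that had been propagated in culture before transplantation. They were 16 to 18 months old at sperm collection. The SSCT F1 mice were 3 months old and DBA/2J, from transplanted males mated with DBA/2J females. The sperm of 3 DBA/2J control F0 males of 16 to 18 months and of 5 control F1 males of 3 months was read beside them. Generation, age, host strain and DNA input therefore changed together between SSCT F0 and SSCT F1 and cannot be told apart. The labels state that the 3 SSCT F0 libraries were made from less than 100 ng of DNA. The sample titles and the heatmap of the study give different names to the offspring. The SSCT F1 libraries used here are numbers 12, 14, 15, 18 and 19, as in the heatmap, whereas the titles call them SSCT F2/P. The control F1 libraries are numbers 11, 13, 16, 17 and 20, which the titles call SSCT F2/M. Under the titles the libraries used as control F1 would thus be of SSCT descent. The main counts are therefore also given with the 5 libraries that the titles call SSCT F1.

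Methylation of cytosines in CpG pairs is copied at each cell division and is laid down in male germ cells around birth, after the genome-wide erasure in their precursors. In sperm most of the genome is methylated, whereas CpG islands at gene starts stay free of it. After fertilisation the paternal genome is largely demethylated and remodelled, and a further erasure follows in the germ cells of the embryo, so that most marks of a father's sperm are rewritten before they could reach the sperm of a son. Imprinted regions escape the first of these waves. RRBS enriches CpG-rich restriction fragments and reads methylation as the share of reads in which bisulfite left a cytosine unconverted.

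The libraries differed far more in the number of positions than in reads. The 8 libraries held 50626343 to 75299581 reads at CpG positions. The 5 SSCT F1 libraries listed 2091034 to 2177840 positions, counted per strand. In SSCT F0, library 21 (replicate 1) listed 1977100, library 23 (replicate 2) 1123580 and library 24 (replicate 3) 305964. At the autosomal positions kept, the median coverage was 26, 41 and 392 reads in libraries 21, 23 and 24, against 24 to 33 in SSCT F1. Since a position had to have at least 10 reads in each library, library 24 limits the comparison to 73956 autosomal positions in 18313 windows of 1000 bp. Without it 524219 positions in 87333 windows could be compared, and each result is given both ways. Spiked-in unmethylated and methylated control DNA read 0.743% to 1.257% and 98.42% to 98.9% methylated in the 8 libraries.

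The cell of origin was checked at gene starts where sperm and somatic cells are known to differ. At the starts of germline genes that somatic cells silence by methylation, such as Dazl and Ddx4, 15 of 20 genes were covered without library 24, with mean levels of 3.36% and 3.34% in libraries 21 and 23 and 2.54% to 6.82% in SSCT F1. At the starts of imprinted genes methylated on the maternal copy, 14 of 18 were covered, with 3.37% and 4.58% against 1.06% to 2.29%. In the 8 libraries together 9 of the 18 were covered, and the means were 3.06%, 13.1% and 12.7% in libraries 21, 23 and 24 against 0.70% to 2.80%. The start shared by Peg3 and Usp29, a paternally expressed pair, read 6.4%, 14.9% and 49.8% over 4 positions in libraries 21, 23 and 24 and 0.0% to 4.5% in SSCT F1, so the arms did not overlap, and it was called higher. At the start of Nap1l5, also paternally expressed, library 23 read 46.1% and libraries 21 and 24 0.0%, against 0.0% to 3.3%, and no call was made. Different founders thus stood out at different maternally methylated starts. With 8 libraries 6 germline starts were covered, with 11.6%, 7.62% and 5.65% against 1.63% to 9.82%, and 4 housekeeping starts lay at 0.5%, 1.32% and 0.08% against 0.62% to 5.90%. At 4 starts of imprinted genes methylated on the paternal copy the means were 1.62%, 0.38% and 0.0% against 1.45% to 4.93%. The imprinting control regions of these genes were not analysed here, so these starts do not bear on the cell of origin. The germline mean of library 21 was above the SSCT F1 range with 8 libraries, and both founder means were inside it without library 24. What part other cells have in the SSCT F0 values was not tested.

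The sequences of 3 gene starts show where the measured CpGs lie. They were chosen after their values were seen, because one was higher in SSCT F0, one was lower, and one belongs to a gene that the study listed for both generations. Each is the stretch from 250 bases before to 50 after the RefSeq start on GRCm38.p6, written 5′ to 3′ along the gene, which in all 3 cases is the minus strand. Capitals mark CpGs that had at least 10 reads in the libraries compared without library 24. Gm52830, a predicted gene inside the span of the adhesion receptor gene Adgrd1, starts in chr5:129103698-129103997. Tjap1, the gene of a tight-junction-associated protein, starts in chr17:46282977-46283276. Gpx8, the gene of a glutathione peroxidase of the endoplasmic reticulum, starts in chr13:113046339-113046638.
Gm52830: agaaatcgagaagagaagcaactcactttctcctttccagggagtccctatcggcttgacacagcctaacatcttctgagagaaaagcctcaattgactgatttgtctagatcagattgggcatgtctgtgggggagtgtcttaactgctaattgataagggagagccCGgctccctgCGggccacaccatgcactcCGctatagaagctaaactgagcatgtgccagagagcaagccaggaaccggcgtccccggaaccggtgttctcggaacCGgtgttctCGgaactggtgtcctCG
Tjap1: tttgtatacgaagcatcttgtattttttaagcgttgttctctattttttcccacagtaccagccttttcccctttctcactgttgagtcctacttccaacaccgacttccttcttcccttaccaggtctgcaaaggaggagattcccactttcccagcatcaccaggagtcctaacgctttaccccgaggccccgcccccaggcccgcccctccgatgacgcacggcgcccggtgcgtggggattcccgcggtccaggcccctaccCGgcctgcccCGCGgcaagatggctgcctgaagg
Gpx8: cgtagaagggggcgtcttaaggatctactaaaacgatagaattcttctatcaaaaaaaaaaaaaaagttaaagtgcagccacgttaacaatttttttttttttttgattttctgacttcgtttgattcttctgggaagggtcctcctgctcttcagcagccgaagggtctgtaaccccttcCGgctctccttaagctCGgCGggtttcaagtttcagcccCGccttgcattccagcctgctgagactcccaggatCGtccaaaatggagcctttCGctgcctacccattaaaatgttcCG

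In the Gm52830 start all 6 measured CpGs read 100.0% in library 23, and in library 21 5 of them read 100.0% and the one at chr5:129103819 read 63.6%. In SSCT F1 the same 6 CpGs lay between 0.0% and 31.2%. At the Tjap1 start, 5 positions of 3 CpGs, counted per strand, read 0.0% in library 23 and 0.0% or 21.4% in library 21. The SSCT F1 mice ranged there from 0.0% to 65.3%. Single positions of the arms therefore overlapped at Tjap1 and not at Gm52830. At the Gpx8 start 7 CpGs were measured, which read 0.0% to 7.4% in library 21 and 0.0% to 1.2% in library 23. In SSCT F1 they read 0.0% to 27.3%, and in control F0 0.0% to 8.8%.

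Of the 18313 windows covered in the 8 libraries, 1817 (9.92%) were called as DMRs, that is, at a q-value under 0.01 their read-weighted levels were over 25 percentage points apart. Of these, 1317 were lower in SSCT F0 (7.19% of windows) and 500 higher (2.73%), so 72.5% of calls were losses. Of 73956 single CpG positions 4367 (5.90%) were called, 2408 lower (3.26%) and 1959 higher (2.65%). Counts of called CpGs are of positions per strand, so a CpG covered on both strands enters once for each strand. Without library 24 the shares were nearly the same over many more sites. Here 8752 of 87333 windows were called (10.0%), 6336 lower (7.25% of windows) and 2416 higher (2.77%), and 30878 of 524219 CpGs (5.89%), 16165 lower (3.08%) and 14713 higher (2.81%). With the libraries titled SSCT F1 in the place of the offspring, 1686 windows and 3902 CpGs were called with 8 libraries, and 8071 and 26529 without library 24.

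These calls rest on a chi-square test of reads that does not allow for the spread between mice. An F test, in which the Pearson chi-square scales the error, called 7 windows and 1 CpG with 8 libraries, and 0 windows and 0 CpGs without library 24. At an unadjusted p under 0.05 it had 1040 windows and 2055 CpGs, and 5535 and 16987 without library 24. Limma called 9 windows and 18 CpGs, and 0 and 19 without library 24, with 880, 1821, 6014 and 19454 at an unadjusted p under 0.05. At 414 of the 1817 windows called (22.8%) the mice of the arms did not overlap, against 5.71% of all windows. Without library 24 it was 4589 of 8752 (52.4%) against 12.9%, where 2 mice faced 5. Sets that do not overlap were thus more common among the calls than among all windows, but with 8 libraries most calls had overlapping mice.

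With 8 libraries, library 24 stood out from SSCT F1 at most of the called windows. Mean levels are over the called windows with at least 10 reads in every control F0 and control F1 library. At 1164 of the 1317 lower windows the mean level was 59.8%, 46.2% and 4.28% in libraries 21, 23 and 24, whereas SSCT F1 lay at 68.4% to 71.0%. Library 24 was outside the SSCT F1 range at 93.2% of all 1317, library 23 at 51.3% and library 21 at 38.0%. Library 24 read exactly 0% at 72.7% of these windows, library 23 at 32.6% and library 21 at 8.43%. At 460 of the 500 higher windows the means were 20.4%, 18.8% and 68.5%, against 13.3% to 14.2% in SSCT F1. Without library 24, library 23 was the lower of the founders, with 16.0% against 57.5% in library 21 and 76.1% to 77.8% in SSCT F1 at 5150 of the 6336 lower windows. At 2038 of the 2416 higher windows both founders were high on average, 69.0% in library 21 and 82.9% in library 23, against 36.3% to 38.8%. Control F0, which did not choose these windows, lay nearer SSCT F1 than the founders, at 65.3% to 69.5% and 13.4% to 15.2% with 8 libraries and at 72.0% to 76.7% and 39.1% to 41.5% without library 24. At the higher windows without library 24 each control F0 mouse was above every SSCT F1 mouse. So was each control F1 mouse, at 39.6% to 41.4%. SSCT F1 took part in choosing these windows, whereas the control groups did not.

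The called windows were not spread evenly over the genome's methylation landscape. Windows were put in classes by their mean level in the 15 offspring libraries outside the comparison, low under 20%, high above 80% and middle between. With 8 libraries 52.1% of 1513 middle windows were called and 42.4% of 1423 high windows, but 2.70% of 15319 low windows. Without library 24 it was 37.5% of middle, 9.90% of high and 1.95% of low windows. Of the calls in high windows 602 were lower and 2 higher, and in low windows 29 were lower and 385 higher, directions that these levels leave most room for. Windows within 1000 bp of a gene start were called in 3.01% of cases, those elsewhere in genes in 14.1% and those outside genes in 19.3%. The number of positions moved with the calls too. Of windows with 1 position 21.1% were called, against 14.8% with 2, 5.15% with 3 to 5 and 0.582% with 6 or more. Over the 19 autosomes the share ran from 8.11% on chromosome 7 to 12.1% on chromosome 18.

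The level of each mouse was then followed over the whole of each class, where the calls play no part. In the 1421 middle windows covered also in control F0, libraries 21, 23 and 24 averaged 41.2%, 31.8% and 16.7%. The 5 SSCT F1 mice averaged 40.7% to 43.6%. The mean was 29.9% ± 12.3 (SD, n = 3) in SSCT F0 against 42.4% ± 1.15 (SD, n = 5) in SSCT F1, with p = 0.0357 in a two-sided exact permutation test over the mice. Library 21 lay within the SSCT F1 range, without library 23 the difference was -12.76 points with p = 0.286 in that exact test, and without library 24 the difference was 4.42 points in the same direction with p = 0.143 in that exact test. In the 1322 high windows the founders averaged 90.04%, 82.6% and 57.9%, all below the 94.5% to 95.1% of SSCT F1 (exact permutation p = 0.0179, the smallest that 3 against 5 can give). Without library 24 they averaged 94.8% and 89.8% against 96.1% to 96.4% (exact permutation p = 0.0476, the smallest for 2 against 5). In the 14454 low windows the values were 4.03%, 3.70% and 2.97% against 3.38% to 3.71% (exact permutation p = 0.75), with overlapping arms. Control F0 averaged 39.1% to 44.2%, 94.3% to 95.2% and 3.36% to 3.53% in the middle, high and low windows.

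**Figure D1:**
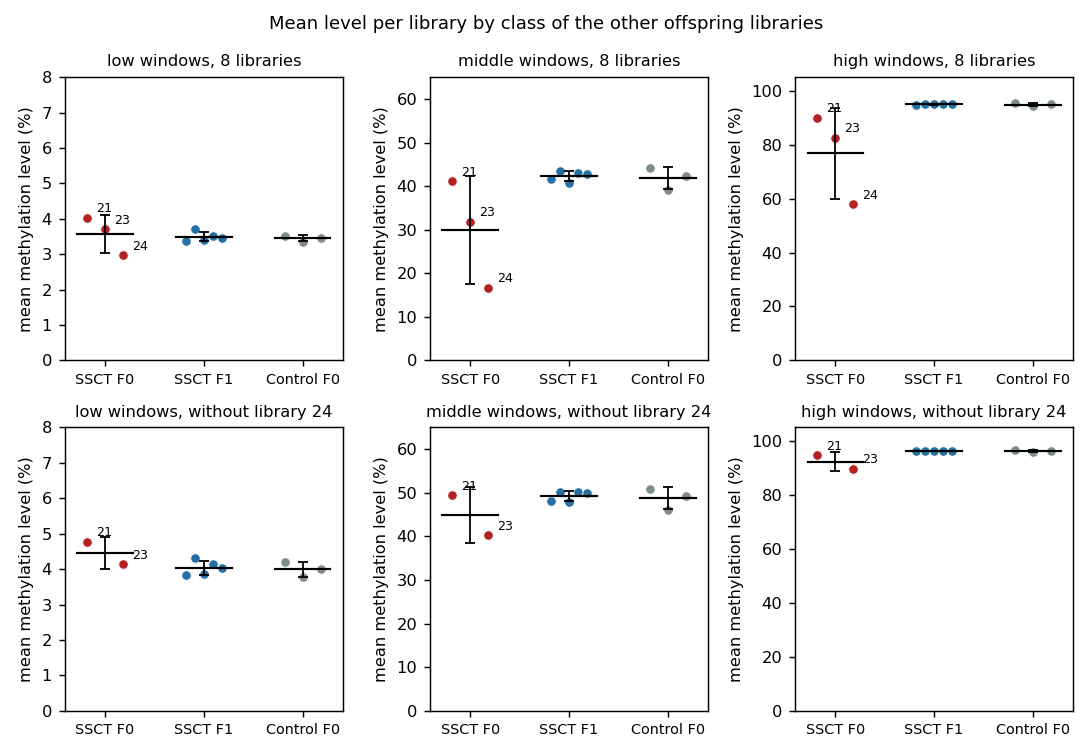
Mean methylation level (%) of each library over windows that are low, middle or high in the other offspring libraries, for 8 libraries (top) and without library 24 (bottom). Points are mice, with SSCT F0 libraries numbered, and lines and bars are the mean and SD of SSCT F0, SSCT F1 and control F0. In high windows the SSCT F0 mice sit at 90.04%, 82.6% and 57.9%, below all SSCT F1 mice, whereas in low windows the groups overlap.

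A lower mean was one side of the difference, and a wider spread was the other. A middle window was counted as displaced in a mouse when it lay more than 25 points from its mean in the 15 other offspring. This held for 37.0%, 55.95% and 71.2% of middle windows in libraries 21, 23 and 24, and for 12.03% to 15.6% in SSCT F1 (exact permutation p = 0.0179). Without library 24 it held for 35.6% and 54.8% against 11.3% to 12.9% (exact permutation p = 0.0476). In high windows the shares were 9.68%, 21.6% and 45.2% against 1.14% to 2.72%, and in low windows 1.88%, 2.98% and 3.43% against 0.560% to 0.858%, each with an exact permutation p = 0.0179. Every founder therefore stood outside the offspring in each class, library 21 the least. Control F0 had 12.95% to 17.2% of middle windows displaced. With the reads of each position thinned to 10, the mean share of displaced middle windows was 56.6% ± 16.0 (SD, n = 3) in SSCT F0 and 19.7% ± 1.60 (SD, n = 5) in SSCT F1.

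In the founders middle windows gathered at the ends of the scale. Of the 1421 middle windows 19.8%, 43.9% and 73.6% lay under 10% methylation in libraries 21, 23 and 24, against 9.2% in SSCT F1 library 12. At 90% or more the shares were 11.4%, 14.8% and 9.08% against 3.17% in library 12. At single positions 79.6%, 90.2% and 89.8% read exactly 0% or 100% in libraries 21, 23 and 24, against 76.7% to 78.8% in SSCT F1 (exact permutation p = 0.0179). Control F0 spread around the latter, from 72.2% to 80.6%, and control F1 from 75.1% to 80.3% at the positions where it had 10 reads. Library 21 thus lay within both control ranges, whereas libraries 23 and 24 lay above them. With the libraries titled SSCT F1 this test gave p = 0.0714 in place of 0.0179, again as an exact permutation test. The low DNA input and, in libraries 23 and 24, the smaller number of positions of the founders moved with these values, and their part was not tested.

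**Figure D2:**
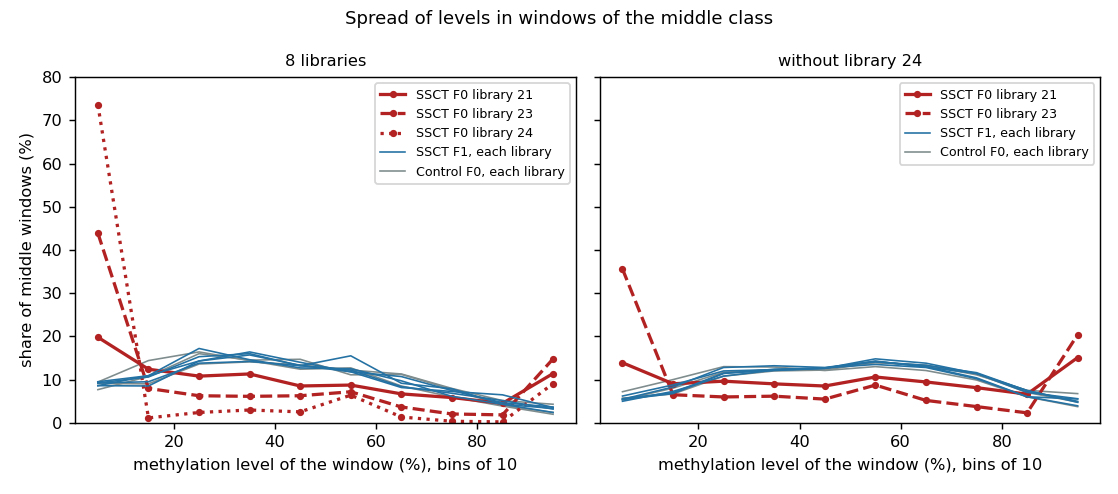
Share of middle windows (%) in each 10-point bin of methylation level, one line per library, for 8 libraries (left) and without library 24 (right). Red lines with points are SSCT F0 libraries, blue SSCT F1 and grey control F0. In the lowest bin libraries 21, 23 and 24 hold 19.8%, 43.9% and 73.6% of windows, above each SSCT F1 library.

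Displaced windows were compared between pairs of mice, beside the product of the shares of both mice of a pair, since mice with more displaced windows share more of them. Libraries 21 and 23 were both displaced at 393 of 1421 middle windows (27.7%), where the product was 20.7%, on the same side at 326 and on opposite sides at 67. Libraries 21 and 24 were on the same side at 284 and on opposite sides at 161, and libraries 23 and 24 at 508 and 176. These pairs shared 31.3% and 48.1% of middle windows, with products of 26.3% and 39.8%. Pairs of SSCT F1 mice were both displaced at 34 to 65 windows (2.39% to 4.57%), with products of 1.61% to 2.25%. The shared part was 1.19 to 1.34 times the product in pairs of founders, 1.43 to 2.03 times in pairs of SSCT F1 mice and 1.51 to 1.90 times in pairs of control F0 mice, which is given as a description. Without library 24, libraries 21 and 23 shared 2871 displaced middle windows (27.4%, product 19.5%), 2403 of them on the same side, and pairs of SSCT F1 mice shared 266 to 365 (products 1.28% to 1.65%). Pearson's r over 17226 windows was 0.574 to 0.821 between founders, 0.587 to 0.878 between founders and SSCT F1, 0.926 to 0.933 within SSCT F1 and 0.928 to 0.941 within control F0. Windows share libraries and base composition, so these correlations across windows are descriptions. Without library 24 the single pair of founders had r = 0.888, founders and SSCT F1 0.868 to 0.939, and SSCT F1 mice 0.965 to 0.969.

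**Figure D3:**
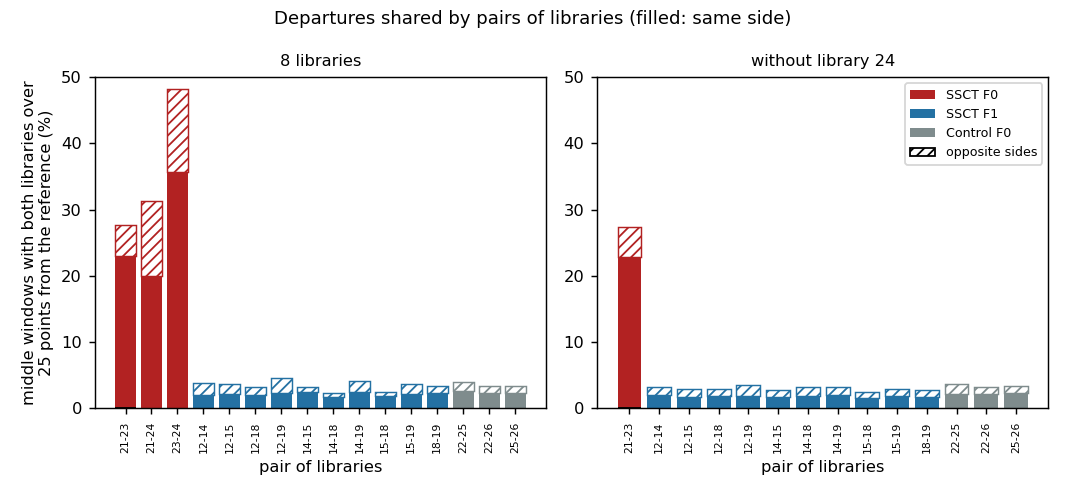
Share of middle windows (%) in which both libraries of a pair lay over 25 points from the reference of 15 other offspring, for 8 libraries (left) and without library 24 (right). Filled bars are windows displaced to the same side and hatched bars to opposite sides. The pair 21 and 23 shares 27.7% of windows in the left panel and pairs of SSCT F1 mice 2.39% to 4.57%, where the products of the libraries' own shares, which are not drawn, are 20.7% and 1.61% to 2.25%.

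Named windows were those with the largest gap between group means among called windows with 3 or more positions and no overlap between the arms. With 8 libraries 93 windows were eligible, 71 lower and 22 higher, and without library 24 1497, 976 lower and 521 higher. Because non-overlap was asked for, their levels are descriptions and are given with no test. Positions within a window mostly lay close enough together to share reads, so they are not independent.

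Of the 10 lower windows named with 8 libraries, 5 lay in gene spans. In an intragenic window of Dclk1, a microtubule-binding kinase gene, libraries 21, 23 and 24 read 16.5%, 0.0% and 0.0% at chr3:55347651-55347683. The SSCT F1 mice read 92.3%, 69.2%, 86.6%, 90.6% and 95.5%, and control F0 mice 92.1%, 67.0% and 48.6%. All founders were below every other mouse of these groups. In Dlgap2, the gene of a postsynaptic scaffold protein, the founders read 19%, 32.4% and 0.0% at chr8:14340135-14340179, SSCT F1 90.3% to 100.0% and control F0 95.2% to 100.0%. In Unc5b, a netrin receptor gene, the values at chr10:60800501-60800566 were 37.5%, 0.0% and 0.0% against 73.3% to 95.1%. A window outside genes at chr1:36115788-36115813 read 0.0% in all 3 founders and 49.4% to 100.0% in SSCT F1. At Gm572 the arms were apart by only 1.8 points, since library 21 read 92.6% there while libraries 23 and 24 read 0.0% and 0.3%.

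The window with the largest gain over SSCT F1 with 8 libraries covered 3 positions at chr6:124718486-124718506, with 4 genes inside or within 2000 bp of the window. These were Mir200c and Mir141, microRNA genes of epithelial cells, Phb2, a mitochondrial prohibitin gene, and Ptpn6, a phosphatase gene of blood cells. Libraries 21, 23 and 24 read 28.2%, 100.0% and 66.9% there. The SSCT F1 mice read 0.0%, 3.3%, 0.0%, 9.2% and 2.6%, and control F0 mice 0.0%, 0.0% and 4.8%. In Tmem132c, a transmembrane protein gene, the founders read 23.4%, 95.9% and 67.4% at chr5:127259442-127259483, against 0.0% to 3.3% in SSCT F1. In Zfp365, a zinc finger protein gene, they read 32.8%, 54.1% and 53.4% at chr10:67887760-67887805, against 0.0% to 6.2%. In Tbx15, a T-box transcription factor gene of skeletal development, they read 34.8%, 45.1% and 33.6% at chr3:99258346-99258392, against 0.0% to 9.8%. Tbx15 over its whole measured span did not differ in this way, with 3.3%, 3.2% and 2.6% against 1.8% to 3.6%.

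Without library 24 the gaps were wider, from 47.7 to 88.9 points between the nearest mice of the arms, with 2 founders in place of 3. Both founders were at or near 0% in a window of Pear1, a platelet receptor gene, with 9.5% and 0.0% at chr3:87764656-87764687 against 95.5% to 100.0% in SSCT F1. In Hmga2, the gene of a chromatin architectural protein of embryonic growth, libraries 21 and 23 read 0.0% and 0.0% over 4 positions at chr10:120376015-120376058. The SSCT F1 mice read 97.0%, 100.0%, 78.6%, 92.6% and 95.8%, and control F0 90.9% to 100.0%. In Rarg, the gene of retinoic acid receptor gamma, both founders read 0.0% against 70.4% to 96.2%. In Foxp4, a forkhead factor gene, they read 10.4% and 0.0% against 74.7% to 100.0%, and in Tox, a nuclear factor gene of T cell development, 0.0% and 22.8% against 89.9% to 100.0%.

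Gains without library 24 included 2 neighbouring windows of Kank4, a gene of an ankyrin-repeat protein that binds the actin cytoskeleton. In the first, at chr4:98778334-98778702, both founders read 100.0% and the SSCT F1 mice 8.6%, 8.0%, 0.5%, 11.1% and 4.1%. In the second, at chr4:98779106-98779224, they read 99.5% and 100.0% against 3.6% to 17.9%. In Hdac7, a class IIa histone deacetylase gene, 7 positions at chr15:97808040-97808108 read 89.5% and 100.0% against 1.7% to 16.6% in SSCT F1 and 6.4% to 7.6% in control F0. In the window of Adgrd1 and Gm52830, whose sequence is printed above, the levels were 96.9% and 100.0% against 14.1%, 18.6%, 18.6%, 2.7% and 11.1%. In Cdh22, a cadherin gene, they were 87.6% and 99.3% against 0.0% to 39.9%.

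The 15 offspring libraries outside the comparison had no part in choosing these windows. Of 593 levels that they gave at the 40 named windows, 13 reached the side of the founders, at 5 windows. Without library 24 this was 1 of 294 levels, near Gm35404, where control F1 replicate 3 read 100.0% and the founders 96.7% and 100.0%. A level counted only if it lay at or beyond the nearest founder. At several windows that founder read exactly 0.0% or 100.0%, so levels close to it were not counted. Control F1 replicate 2 read 90.9% at chr5:140571836-140571880, where both founders read 100.0% and SSCT F1 0.0% to 23.1%. The median of the 13 other offspring covered there was 8.4%. Of the 40 windows, control F0 mice reached the founders' side at 3, all in the set with 8 libraries.

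**Figure D4:**
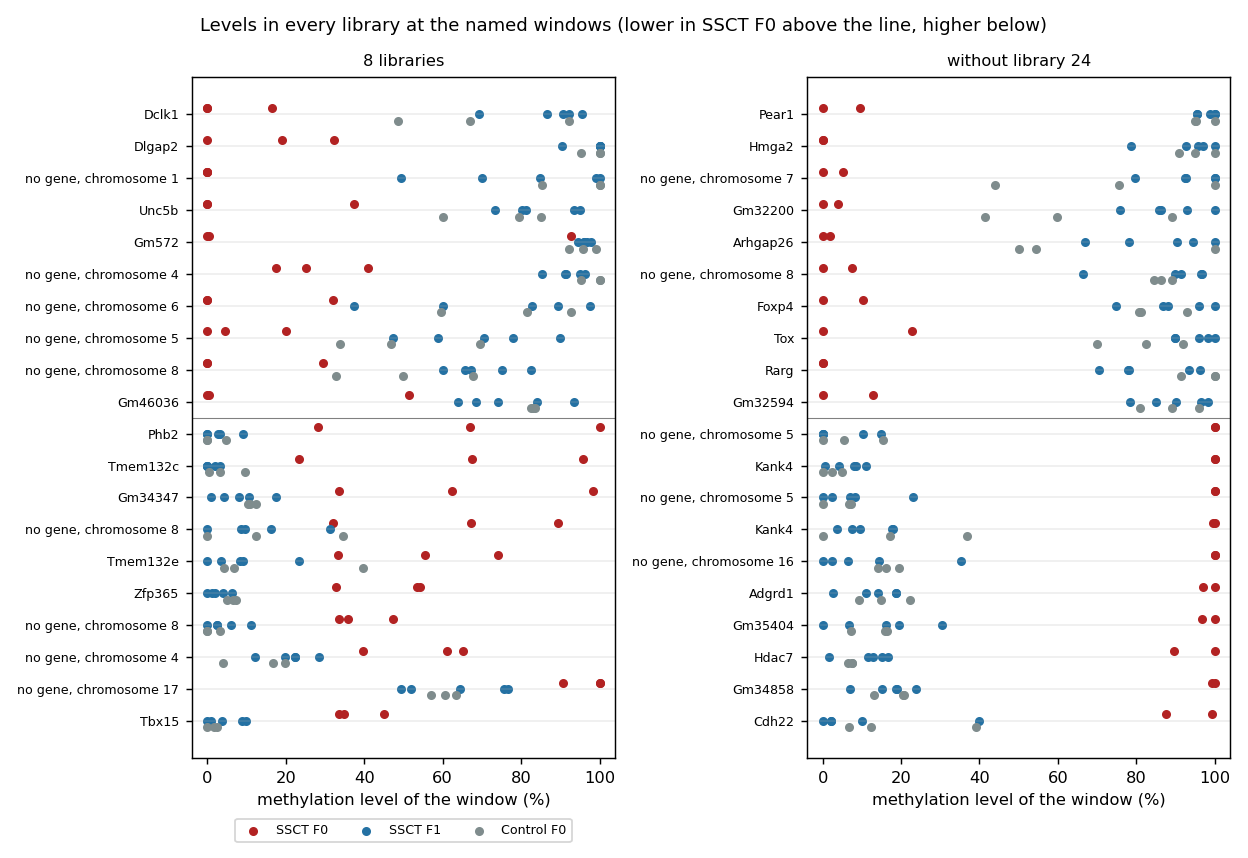
Methylation level (%) of each SSCT F0 (red), SSCT F1 (blue) and control F0 (grey) mouse at the 40 named windows, for 8 libraries (left) and without library 24 (right). Windows above the line are lower in SSCT F0 and those below are higher. The arms do not overlap, by the rule that chose the windows, and at 37 of 40 no control F0 mouse reaches the side of the founders.

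Gene lists were described by their counts. Of 8724 gene starts covered with 8 libraries, 3.03% held a called window, 1.05% a lower and 1.97% a higher one. Without library 24 it was 3.26% of 15788, 2.30% lower and 0.956% higher. Against this background no start of a germline, housekeeping, DNA methylation enzyme or Hox gene held a call in either set. These lists had 6, 4, 6 and 13 genes with a covered start with 8 libraries and 15, 8, 10 and 21 without library 24. Among pluripotency genes 2 of 10 covered starts held a call without library 24. At Pou5f1, the gene of the pluripotency factor Oct4, the level over 4 positions was 48.2% in library 21 and 0.8% in library 23 against 24.6% to 53.2% in SSCT F1. At Esrrb, an orphan nuclear receptor gene, 1 window was higher, and its start read 3.5% and 15.5% against 3.7% to 6.4%. Library 23 stood far outside SSCT F1 at both genes, whereas library 21 was inside its range at Pou5f1 and just below it at Esrrb. Genes with no start in the RefSeq table were read over their span with 2000 bp on either side. Of stem cell genes, 0 of 9 windows at starts and 1 of 11 in spans were called with 8 libraries, and 0 of 27 and 3 of 40 without library 24, beside 9.92% and 10.0% of all windows. Among them Itga6, the integrin subunit used to sort spermatogonia, held 1 lower window with 8 libraries and 2 without library 24. Over its whole measured span it read 38.7%, 31.1% and 26.1% against 39.2% to 65.5%, and 14.9% and 7.2% against 13.8% to 24.4%. Zbtb16, a transcription factor gene that stem cells need for self-renewal, held 1 lower window of 12 and read 24.8% and 24.9% over its span against 26.6% to 34.5%.

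Hox and other developmental genes had low levels as groups in both arms. Over the spans of 16 Hox genes the means were 4.04%, 5.01% and 7.42% with 8 libraries against 4.50% to 7.78%, and over the starts of 25 other developmental factors 3.10%, 0.64% and 2.91% against 1.63% to 2.65%. Of Hox genes 2 of 33 windows in spans were called lower and 1 higher with 8 libraries, and 2 and 1 of 91 without library 24. Of the other developmental factors 2 of 61 windows in spans were called lower and 1 higher, and 7 and 1 of 136 without library 24, and at starts 1 of 34 was called higher and 0 of 81 without library 24. All these shares lay below the 9.92% and 10.0% of all windows. Of windows at Hox starts 0 of 19 and 0 of 42 were called. Low windows, the class in which these group means lie, were called in 2.70% and 1.95% of cases. A low group mean does not place each window of a list in that class. Calls in low windows were mostly higher, with 385 higher and 29 lower with 8 libraries, whereas those in the spans of these lists were mostly lower. Neither share is therefore a matched background for these small counts. The calls were 1 window each in Hoxa4, Hoxc6, Hoxc9, Pax3, Gata6, Tbx1 and Tbx15 with 8 libraries, and without library 24 windows in Hoxb3, Hoxc9, Hoxc10, Pax3, Gata4, Tbx3, Otx1 and Wt1. In Hoxa4 the gain was in library 24 alone, at 81.6% against 0.0% in both other founders and 0.0% to 7.2% in SSCT F1. At the start of Tbx1, a T-box gene of pharyngeal development, library 24 read 33.4% against 1.8% and 0.0%. H19, an imprinted non-coding RNA gene, held 1 higher window without library 24, with 81.4% and 45.4% over 3 positions in its span against 19.4% to 49.1%. Those positions lie in or near the gene, and its imprinting control region was not analysed here.

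Of 9 genes that the study listed for both SSCT F0 and SSCT F1, a list chosen on these samples, 4 had a covered start with 8 libraries and 5 without library 24, and no window there was called. The study had compared each arm with its own controls, so a gene changed alike in both arms would give no call here. At Gpx8 the start read 3.9%, 11.6% and 0.0% in libraries 21, 23 and 24, below the 18.1% to 26.3% of SSCT F1 and the 16.2% to 20.8% of control F0. Without library 24 it read 2.1% and 9.4% against 12.5% to 17.2%, with control F0 at 9.6% to 11.4%, so library 23 was just below the control founders. At Tal2, Mars1 and Tet1 no mouse of the arms was above 9.3%. Over the span of Tal2 with 2000 bp on either side all 3 founders read 0.0% with 8 libraries, and control F0 1.6% to 5.8%. SSCT F1 read 0.7% to 2.1% there and control F1 1.4% to 10.9%. Without library 24 the founders read 1.5% and 0.0%, control F0 2.2% to 3.0%, SSCT F1 0.5% to 3.8% and control F1 1.3% to 6.1%. Pou2f2 was covered only without library 24 and read 2.0% and 0.0% against 0.0%. The starts of Slc13a4 and Capn11 had no position in these sets. Over the span with 2000 bp on either side all 7 matched genes were covered, and 4 of 18 windows were called with 8 libraries and 4 of 39 without library 24, all lower. Of all windows 9.92% and 10.0% were called, 7.19% and 7.25% lower. With so few calls these counts are a description of the genes and no trait of the list. With 8 libraries these lay in Slc13a4, Tet1, Capn11 and Pou2f2, 1 in each, and without library 24 there were 2 in Slc13a4 and 1 each in Tet1 and Pou2f2. With 8 libraries the mean of the genes was 8.83%, 6.57% and 1.64% in libraries 21, 23 and 24 against 13.56% to 27.61% in SSCT F1. This was a difference of -15.85 points beside -5.042 at starts. In that mean Slc13a4, with 1 position, weighed as much as any other gene. Without library 24 the mean was 26.4% and 18.13% against 23.13% to 31.13%, so library 21 lay within the SSCT F1 range. Slc13a4, a sulfate transporter gene, had 1 position with 8 libraries, at 0.0% in all founders and 6.2% to 100.0% in SSCT F1. Without library 24 it had 13 positions and read 62.4% and 32.4% against 50.0% to 74.9%. In Tet1, the gene of an enzyme that oxidises methylated cytosine, 14 positions read 5.0%, 0.0% and 0.1% against 3.7% to 21.5%, and 73 positions read 19.8% and 12.3% against 19.8% to 29.1% without library 24. Library 21 thus reached the range of SSCT F1 at Tet1 in both sets, and at Slc13a4 without library 24. Of the listed genes, C130012C08Rik and BC035947 did not match the gene table.

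Whether the losses and gains of the founders were carried into SSCT F1 was asked at windows chosen without the offspring. Windows were called between SSCT F0 and control F0, and SSCT F1 was then compared with control F1, neither of which took part in the choice. Under the titles these offspring groups would be SSCT F2/P and SSCT F2/M. Values with the libraries that the titles call SSCT F1 and control F1 are given at the end. With 8 libraries 1081 of 15582 windows (6.94%) were lost in SSCT F0 and 440 (2.82%) gained. At the lost windows libraries 21, 23 and 24 averaged 59.9%, 46.2% and 4.53%, and control F0 68.4% to 71.9%. The SSCT F1 mice averaged 67.8% to 69.7% and control F1 68.6% to 70.0%. SSCT F1 minus control F1 was -0.578 points, 1.73% of the difference of -33.4 points between the founder groups, and the ranges overlapped (exact permutation p = 0.206, n = 5 and 5, two-sided). At the gained windows the founders averaged 20.5%, 18.9% and 70.0%, control F0 12.5% to 15.1%, SSCT F1 13.95% to 15.3% and control F1 13.9% to 15.3%. Here the difference of SSCT F1 from control F1 was -0.129 points, on the side opposite to the founders (exact permutation p = 0.706).

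Without library 24 there were 4769 lost and 1976 gained windows of 73141. At the lost windows SSCT F1 averaged 75.7% to 77.1% and control F1 75.5% to 77.6%, a difference of -0.392 points beside -40.8 points in the founders (exact permutation p = 0.405). At the gained windows SSCT F1 averaged 38.2% to 40.9% and control F1 39.2% to 40.7%, a difference of -0.355 points beside 38.5 points (exact permutation p = 0.548). Single windows gave the same picture. Of the 1521 lost or gained windows with 8 libraries, the SSCT F1 and control F1 mice did not overlap at 12 (0.789%), against 0.571% of all 15582 windows. At 6 of the 12 SSCT F1 lay on the founders' side and at 6 on the other. Without library 24 there were 41 such windows (0.608%) against 0.483% of all, 24 on the founders' side and 17 on the other. SSCT F1 was more than 10 points from control F1 on the founders' side at 121 lost windows and on the other side at 97, and at 19 and 24 gained windows. In shares these were 11.2% and 8.97% of lost windows and 4.32% and 5.45% of gained windows. Of the windows not called, 1.79% lay more than 10 points lower in SSCT F1 and 1.66% more than 10 points higher, so both directions were more common at lost and gained windows. Without library 24 these numbers were 457 and 407 for lost and 256 and 282 for gained windows, or 9.58%, 8.53%, 12.96% and 14.3%, against 2.32% lower and 2.02% higher among windows not called. A mean shift of the size seen in SSCT F0 was not seen in SSCT F1 at these windows, whereas differences under 1 point could not be told from the spread between mice.

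**Figure D5:**
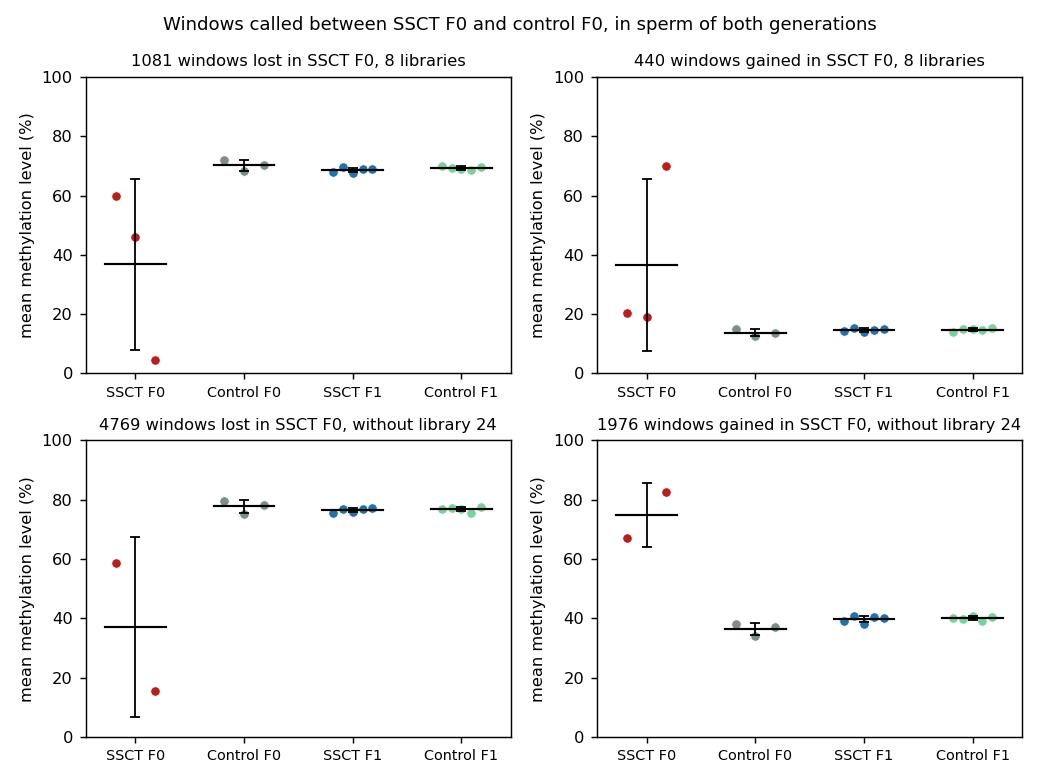
Mean methylation level (%) of each mouse at windows lost (left) or gained (right) in SSCT F0 against control F0, for 8 libraries (top) and without library 24 (bottom). Lines and bars are mean and SD. SSCT F0 and control F0 are apart because they chose the windows, whereas SSCT F1 and control F1, at 67.8% to 69.7% and 68.6% to 70.0% in the upper left panel, overlap.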

How the data were processed

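RRBS libraries were made by the authors from sperm DNA of single mice. For each library the authors deposited, per CpG position and strand, the fraction of reads that were methylated and the coverage as a count of reads. The submitters' processing notes name Trim Galore 0.4.1, Bismark 0.20.0, methylKit 1.7.0 and the build GRCm38/mm10. Replicates were not pooled.

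Methylated reads were recovered as fraction times coverage. Autosomal positions with at least 10 reads and no more than the library's 99.9th percentile of coverage were kept when they passed in each library compared, and were summed over windows of 1000 bp. Coverage sets the precision of each value and covers counting error only, since reads without molecular identifiers are not independent molecules. A logistic likelihood-ratio chi-square test with Benjamini-Hochberg q-values was used after the methods of the study, with thresholds of 0.01 and 25 points. Single values per mouse were compared with two-sided exact permutation tests, whose smallest p is 0.0179 for 3 against 5, 0.0476 for 2 against 5 and 0.00794 for 5 against 5. An F test and limma 3.58.1 (R 4.3.3) on log2((methylated + 1)/(unmethylated + 1)) took up the spread between mice. Python 3.11.15 and scipy 1.17.1 were used for the rest, and the tests were first tested on simulated data.

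Groups follow the titles for F0 and the heatmap of the study for the offspring. Gene names, spans and promoter sequences are those of RefSeq for GRCm38.p6. A window was named by every gene whose span with 2000 bp on either side held it. Named windows are, per set of libraries, the 10 lower and 10 higher with the largest difference of group means among called windows with 3 or more positions and no overlap. Of each gene list the genes with the largest difference are named, and every gene that the study listed for both generations. The comparison, the lists and the rules were chosen with earlier results of these data known. Nothing in the labels pairs the mice. The exact permutation p-values measure the spread between mice, whereas the q-values of the calls cover counting error of reads only. The study bred SSCT F1 from 3 transplanted males and avoided brothers within a group. The labels do not say which male sired which mouse, and kinship was not modelled. The displaced windows, the levels of the other libraries at named windows and the sequences shown were chosen after the data had been seen. Hprt, Pgk1, Sox3 and Ngn3 were not matched on the autosomes.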

Additional observations from a re-analysis of the deposited data

Results flagged for a closer look

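Of 66 sets of 5 offspring mice, tested at the named windows and for values per mouse, 3 held a mouse that stood apart from the rest of its group by Dixon's criterion. All of them were SSCT F1 mice at named windows, where only SSCT F1 was tested. Chance gives about 1 in 20. At the Dlgap2 window replicate 2 read 90.3% where each other SSCT F1 mouse read 100%. At the window starting at chr8:88605001, outside genes, replicate 1 read 66.5% against 89.8% to 96.8%. At the Cdh22 window replicate 3 read 39.9% against 0% to 10%. In each case the mouse lay between the rest of its group and the founders. That the founders stayed apart from it was fixed by the rule that chose the windows.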

How the results depend on the processing

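The number of calls depended most on the test. With a minimum of 20 reads 2592 CpGs and 1156 windows were called with 8 libraries, and 14913 and 5082 without library 24. The F test called 1, 7, 0 and 0 and limma 18, 9, 19 and 0 in the same order. A difference of 10 points gave 8358, 3697, 68643 and 19320, and 68.5% of the 8358 were lower in place of 55.1%. Windows with 3 or more positions gave 325 and 2091, and 61.8% of the 325 were lower in place of 72.5%. Leaving out 1 mouse at a time gave 4420 to 30878 CpGs and 1843 to 8752 windows with 8 libraries, and 32266 to 47129 and 9134 to 13708 without library 24. Without library 23 there were 6976 CpGs and 3068 windows, and 47129 CpGs and 11157 windows when library 24 was left out as well, of which windows 55.2% were lower in place of 72.4%, while 46744 CpGs and 13708 windows were called when libraries 21 and 24 were left out. The replicate numbers share only a number, with correlations of deviations of -0.020, 0.0075 and 0.029 between same-numbered mice. A replicate block gave 4270, 1799, 32940 and 9173 calls. With the strands of a CpG merged 4320 CpGs were called with 8 libraries and 27839 without library 24.

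The difference in mean autosomal methylation was -0.897 points (exact permutation p = 0.0893), and without library 21 the difference was -1.409 (exact permutation p = 0.0476), with -1.409 to -0.8538 over all leave-one-out sets. The share of positions at 0% or 100% differed by 8.896 points and by 7.021 (exact permutation p = 0.0714) under the names of the titles, with 6.851 to 12.21 when 1 mouse was left out. In low windows the difference of 0.0736 turned to -0.02407 under the titles, with -0.1541 to 0.09872 when 1 mouse was left out, the lowest without library 21. In middle windows it was -4.416 without library 24 (exact permutation p = 0.143) and -9.704 with classes at 10% and 90% (exact permutation p = 0.0536), and -18.17 to -12.06 when 1 mouse was left out. Of those, p was no longer under 0.05 without library 23 (exact permutation p = 0.286) and without SSCT F1 replicates 1, 2, 4 or 5 (exact permutation p = 0.0571 each). The differences in high windows and in displaced windows kept their direction and their side of the threshold in the alternatives tried.

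At windows lost in SSCT F0 the difference of SSCT F1 from control F1 turned to 0.281 under the titles and 0.210 with 3 or more positions, with -0.9159 to -0.2845 when 1 mouse was left out. At gained windows it turned to 0.2172 with 20 reads and 0.4512 under the titles, and was -0.3968 to 0.05388 when 1 mouse was left out. It turned without SSCT F1 replicate 3 (0.05388) and without control F1 replicate 5 (0.001158). The cause of these changes was not tested. Named windows kept their direction in 300 leave-one-out sets, an outcome that the rule of no overlap between the arms fixed in advance. With 8 libraries 5 of 160 such sets, at 2 windows, no longer had p under 0.05 (exact permutation p = 0.0571). These values are descriptions, since the windows were chosen on the same levels and the calls were not remade. Without library 24 the sets are too small for the exact test to pass, so they say nothing on the calls. With the libraries titled SSCT F1, the exact permutation p stayed under 0.05 at 35 of 40 windows. Over whole spans with 8 libraries the genes that the study listed differed by -15.85 points in place of -5.042 at starts. In that mean Slc13a4, with 1 position, weighed as much as any other gene. Without library 24 library 21 lay within the SSCT F1 range over these spans. Stem cell genes differed by -5.154 in place of -1.073, and genes imprinted on the paternal copy by 3.541 in place of -2.432. The positions that library 24 covers limit the comparison of all 8 libraries.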
